A study of Homo sapiens with 26 samples.

Results

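The genes described here are 10 cytoskeletal and adhesion genes whose transcription is known to answer to the factors SRF and YAP, namely ACTB, ACTG1, SRF, VCL, MYL9, TAGLN, CCN1, CCN2, ANKRD1 and AMOTL2. They were chosen by name from 63086 genes in the count files, and all 10 were found among the 20044 protein-coding genes. Their RNA was taken from clarified cell lysate, without the pelleted material. It was measured by poly(A) sequencing in 26 libraries from HCT116 cells, a human colorectal carcinoma line. Of these, 24 libraries came from cells that carried Tet-OsTIR1-PURO, were knocked out for IGF2BP2 and IGF2BP3, and expressed the RNA-binding protein IGF2BP1 with an mCherry tag from a lentiviral transgene. The transgene was wild type (WT), S181E, Y396E or RQ. S181E and Y396E each put a glutamate in place of a serine or tyrosine that can be phosphorylated in a disordered linker, and in RQ arginines of the first linker are replaced by glutamine. Each of these 4 sorted populations, which are not single clones, was given PBS as control or 500 µM sodium arsenite, an oxidative stressor, for 2 h. This gave 8 groups of 3 libraries from separately plated dishes. The last 2 libraries, 1 control and 1 arsenite, came from parental HCT116 cells without the transgene, which the paper calls nonengineered. Differences from them therefore cannot be put down to the transgene alone.

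SRF is a transcription factor that binds the CArG box, a short A/T-rich motif flanked by C and G pairs. It works with alternative partners. The myocardin-related factors MRTFA and MRTFB are held back by monomeric actin and drive actin, myosin and adhesion genes when actin polymerizes, and the ternary complex factors ELK1, ELK3 and ELK4 drive immediate-early genes such as FOS and EGR1 downstream of MAP kinases. YAP and its relative TAZ (gene WWTR1) are coactivators of the TEAD factors. They are restrained by the Hippo kinases, respond to cell shape and actin tension, and share several cytoskeletal targets with MRTF and SRF.

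Promoter sequence is shown for SRF and CCN2 because they carried the most copies of the SRF and TEAD motifs, and for ACTG1 and ANKRD1 as a second case of each. The sequences are the 250 bases before the RefSeq transcription start in GRCh38.p14, read 5′ to 3′ in the direction of the gene, with CArG boxes (CC, 6 letters of A or T, GG) or TEAD motifs (GGAATG or its reverse complement CATTCC) in capitals. SRF lies at chr6:43171019-43171268 on the plus strand, ACTG1 at chr17:81512800-81513049 on the minus strand, CCN2 at chr6:131951373-131951622 on the minus strand and ANKRD1 at chr10:90921088-90921337 on the minus strand.
SRF: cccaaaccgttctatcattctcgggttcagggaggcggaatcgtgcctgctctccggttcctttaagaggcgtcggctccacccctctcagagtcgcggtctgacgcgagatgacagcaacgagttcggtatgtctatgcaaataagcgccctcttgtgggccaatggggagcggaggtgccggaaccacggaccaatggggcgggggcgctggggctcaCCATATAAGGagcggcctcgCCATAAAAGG
ACTG1: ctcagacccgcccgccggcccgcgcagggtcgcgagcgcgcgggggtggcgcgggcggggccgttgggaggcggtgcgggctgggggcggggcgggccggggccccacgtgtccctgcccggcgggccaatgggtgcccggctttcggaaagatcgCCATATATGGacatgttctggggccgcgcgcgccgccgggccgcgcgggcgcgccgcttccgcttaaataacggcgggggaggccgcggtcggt
CCN2: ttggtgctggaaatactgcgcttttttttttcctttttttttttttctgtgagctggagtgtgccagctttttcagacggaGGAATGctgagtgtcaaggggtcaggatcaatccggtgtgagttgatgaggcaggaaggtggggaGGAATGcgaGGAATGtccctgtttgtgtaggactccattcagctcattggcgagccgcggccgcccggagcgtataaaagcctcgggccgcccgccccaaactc
ANKRD1: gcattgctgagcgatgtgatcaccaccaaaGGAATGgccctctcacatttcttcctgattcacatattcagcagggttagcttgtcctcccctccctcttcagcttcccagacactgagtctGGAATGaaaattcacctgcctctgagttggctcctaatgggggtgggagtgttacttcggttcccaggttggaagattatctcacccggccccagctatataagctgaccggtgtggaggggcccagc
The first of 2 SRF windows, shown here, held 2 CArG boxes, beginning 30 and 10 bases before the start, and the second, at chr6:43172146-43172395, held none. ACTG1 held 1, beginning 94 bases before its start. CCN2 held 3 TEAD motifs, beginning 169, 104 and 95 bases before the start, and ANKRD1 held 2, beginning 220 and 128 bases before it. VCL held 1 TEAD motif 171 bases before its start, and 1 of 2 windows of AMOTL2 held 1 at 69 bases. In all, 6 of the 10 genes had a window in the table. ACTB, MYL9, TAGLN and CCN1 had none. Among 35116 windows of the same length, searched on both strands, 1.16% held a CArG box and 0.0313% held 2 or more. A TEAD motif was found in 11.9% and 3 or more in 0.0826%. None of the windows of these genes held both motifs, and a match describes the sequence and does not show binding.

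The libraries held 22508145 to 50834401 counts. Levels are given as CPM, counts normalized to library size with the TMM adjustment of edgeR. Y396E arsenite replicate 3 stood apart. It detected 13897 genes, fewer than any other library (20850 or more), and values of the 10 genes that moved with it are given with and without it. The transgene level told the parental libraries from the rest, and could not check which form of IGF2BP1 a library carried. IGF2BP1 had 0.347 and 0.645 CPM in the parental libraries. It had 10.6 to 20.4 CPM in control libraries of the 4 populations and 27.9 to 48.0 CPM in their arsenite libraries. Of 8 colorectal epithelial markers 6 exceeded 1 CPM, led by KRT8 (823 to 2395 CPM) and EPCAM (309 to 492 CPM), while VIL1 and LGALS4 stayed at or below 0.228 CPM. Of 8 fibroblast and smooth muscle markers 3 exceeded 1 CPM, ACTA2, COL1A1 and DES, and the list summed to 14.1 to 20.9 CPM in control and 17.1 to 23.1 CPM in arsenite. None of 6 endothelial and immune markers exceeded 1 CPM. The summed epithelial list moved with treatment, from 2036 to 2650 CPM in control to 3170 to 3908 CPM in arsenite, and its part in the arsenite results was not tested.

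The 10 genes spanned a wide range of abundance. Per kilobase of exon, the order in WT control cells began with ACTG1, cytoplasmic gamma-actin, at 2268 ± 120 CPM per kb (SD, n = 3), and ACTB, cytoplasmic beta-actin, at 1062 ± 73.3. These were followed by CCN1, a secreted matricellular protein, at 141 ± 15.3, by SRF at 66.3 ± 5.84 and by MYL9, a myosin regulatory light chain, at 54.6 ± 1.08. CCN2, the relative of CCN1, had 27.3 ± 4.74, VCL, the adhesion protein vinculin, 21.6 ± 2.48, and AMOTL2, an angiomotin family member that binds YAP, 17.5 ± 2.37. TAGLN, the actin-binding protein transgelin, had 3.34 ± 0.224, and ANKRD1, a nuclear and sarcomeric ankyrin protein, 0.0635 ± 0.0704. The libraries of CCN2 overlapped those of VCL, and those of VCL overlapped AMOTL2. All other neighbours in this order were separate. Reads of ACTB and ACTG1 that also match the other actin or a pseudogene copy were not counted, so their levels are uncertain in absolute terms.

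**Figure D1:**
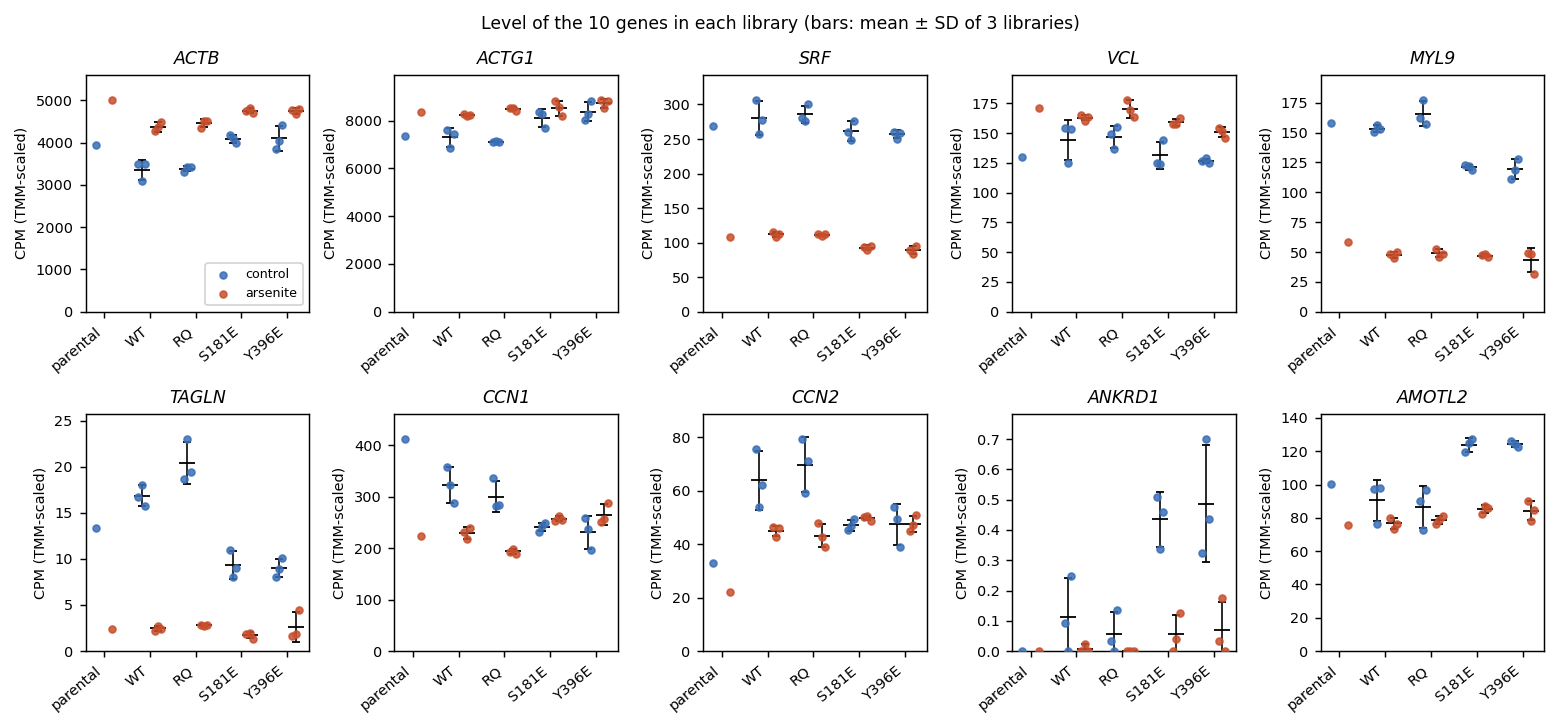
Level of each of the 10 genes in each of the 26 libraries, in CPM scaled by TMM on linear axes that start at 0, by population, with control libraries in blue and arsenite libraries in red. Points are libraries and bars are the mean ± SD of 3 libraries (parental has 1 per treatment). SRF, MYL9 and TAGLN lie far lower in arsenite in every population. CCN1 and CCN2 lie lower in arsenite without overlap in WT and RQ, and CCN1 lies slightly higher without overlap in S181E.

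The quasi-likelihood test of edgeR was run over 9099 protein-coding genes above a level filter, which 8 of the 10 passed. A call required a fold change above 1.2 together with a Benjamini-Hochberg adjusted p below 0.05, and all adjusted p-values come from this test. TAGLN and ANKRD1 were below the filter, and were followed in a fit of 12934 genes that used edgeR's filterByExpr in its place. TAGLN is reported from that fit.

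The first question was how the genes responded to arsenite. In WT cells, SRF and the contractile genes MYL9 and TAGLN fell 2.50-fold, 3.22-fold and 6.89-fold, CCN1 and CCN2 fell 1.40-fold and 1.42-fold, and ACTB rose by 0.38 on the log2 scale. These are 5 called of 8 tested, 1 higher and 4 lower, plus TAGLN. In this comparison 72.2% of all 9099 genes were called. In bulk RNA, fewer cells that express a gene and less of its RNA per cell cannot be told apart. RNA in the material pelleted from the lysate was not measured. In RQ cells the same 5 were called in the same directions, against 72.9% of all genes. In S181E cells 4 were called (VCL higher, SRF, MYL9 and AMOTL2 lower) against 65.3%, and in Y396E cells 3 (SRF, MYL9 and AMOTL2, all lower) against 65.8%. The share called was thus not above that of all genes in any population. The median log2 change of the 8 genes was -0.36 for WT, -0.38 for RQ, 0.08 for S181E and 0.03 for Y396E, with medians over all tested genes between -0.03 and -0.01.

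SRF itself (ENSG00000112658.8, hg38 chromosome 6, 43171269 to 43181506, plus strand), whose promoter with 2 CArG boxes is shown above, had 307, 257 and 278 CPM in WT control and 115, 109 and 113 CPM in WT arsenite. No arsenite library of any population exceeded 115 CPM, and no control library was below 248 CPM. The log2 change was -1.32 ± 0.06 (SE, n = 3 per group) in WT (adjusted p 2.11e-16), -1.36 ± 0.06 in RQ, -1.50 ± 0.06 in S181E and -1.53 ± 0.06 in Y396E. Parental cells, with 1 library per treatment and no test, went from 270 to 108 CPM.

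MYL9 (ENSG00000101335.10, chromosome 20, 36541497 to 36551447, plus strand) had 150, 156 and 153 CPM in WT control and 48.1, 44.7 and 50.2 CPM in WT arsenite. The log2 change was -1.69 ± 0.10 in WT (adjusted p 8.61e-14), -1.76 ± 0.10 in RQ, -1.37 ± 0.10 in S181E and -1.47 ± 0.10 in Y396E. In Y396E arsenite the libraries had 49.0, 48.7 and 31.9 CPM, and the low value is the library with few detected genes. Without it the Y396E change was -1.29 ± 0.06 and was still called. Despite control levels that ran from 111 to 177 CPM, the other arsenite libraries of the 4 populations lay between 44.7 and 52.5 CPM.

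TAGLN (ENSG00000149591.17, chromosome 11, 117199370 to 117207464, plus strand) had the largest fall of the 9 genes for which a test is reported. Its libraries held 16.7, 18.0 and 15.8 CPM in WT control and 2.18, 2.76 and 2.44 CPM in WT arsenite, on 433 to 546 and 56 to 113 counts. In the filterByExpr fit its log2 change was -2.78 ± 0.24 in WT (adjusted p 1.65e-10), -2.87 ± 0.24 in RQ, -2.51 ± 0.26 in S181E and -1.80 ± 0.23 in Y396E. All 4 were called, where 61.2%, 61.9%, 55.2% and 57.9% of the 12934 genes were called in WT, RQ, S181E and Y396E. In Y396E arsenite the values were 1.60, 1.81 and 4.48 CPM, and the high value is again replicate 3. Without it the Y396E change was -2.40 ± 0.16 and was still called. Parental cells went from 13.4 to 2.38 CPM.

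The structural genes ACTB, ACTG1 and VCL moved little and in the other direction. ACTB (ENSG00000075624.17, chromosome 7, 5526409 to 5563902, minus strand) had 3487, 3092 and 3501 CPM in WT control and 4267, 4368 and 4494 CPM in WT arsenite, without overlap. It rose by 0.38 ± 0.05 on the log2 scale in WT (adjusted p 1.47e-07) and by 0.40 ± 0.05 in RQ (7.19e-08). In S181E and Y396E, where control levels were 3994 to 4173 and 3847 to 4424 CPM, the changes of 0.22 ± 0.05 and 0.21 ± 0.05 had adjusted p of 0.000346 and 0.00048 but stayed under the fold threshold. Arsenite levels were 4674 to 4831 CPM in those populations.

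ACTG1 (ENSG00000184009.13, chromosome 17, 81509413 to 81523847, minus strand) had 6853 to 7584 CPM in WT control and 8177 to 8283 CPM in WT arsenite. Its log2 changes were 0.26 ± 0.05 in RQ, 0.17 ± 0.05 in WT, 0.07 ± 0.05 in S181E and 0.06 ± 0.05 in Y396E, and none was called. VCL (ENSG00000035403.18, chromosome 10, 73998114 to 74121363, plus strand), which links integrin adhesions to actin, had 154, 125 and 153 CPM in WT control and 165, 161 and 163 CPM in WT arsenite. Its log2 changes lay between 0.17 ± 0.07 in WT and 0.28 ± 0.07 in S181E, and the latter was called (adjusted p 0.000514). With scaling by library totals only, ACTG1 was called in WT (0.33) and RQ (0.42) and VCL in WT (0.33), RQ (0.37) and Y396E (0.30). VCL was also called in Y396E without Y396E arsenite replicate 3 (0.27). The S181E call of VCL was lost in the filterByExpr fit and without S181E control replicate 1 or 2 or S181E arsenite replicate 3, at 0.24 to 0.26.

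The count ratio of ACTB to ACTG1 was higher in arsenite in each population. It was 0.460 ± 0.00967 in WT control and 0.532 ± 0.0154 in WT arsenite (SD, n = 3 each). In S181E it went from 0.505 ± 0.0121 to 0.559 ± 0.0192, in Y396E from 0.490 ± 0.0109 to 0.545 ± 0.00517 and in RQ from 0.476 ± 0.0088 to 0.525 ± 0.0144. The arsenite libraries lay above the control libraries in all 4 populations. The two-sided exact permutation test gave p = 0.1 in each, the smallest that 3 against 3 libraries allow, and 8 ratio comparisons were made.

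**Figure D2:**
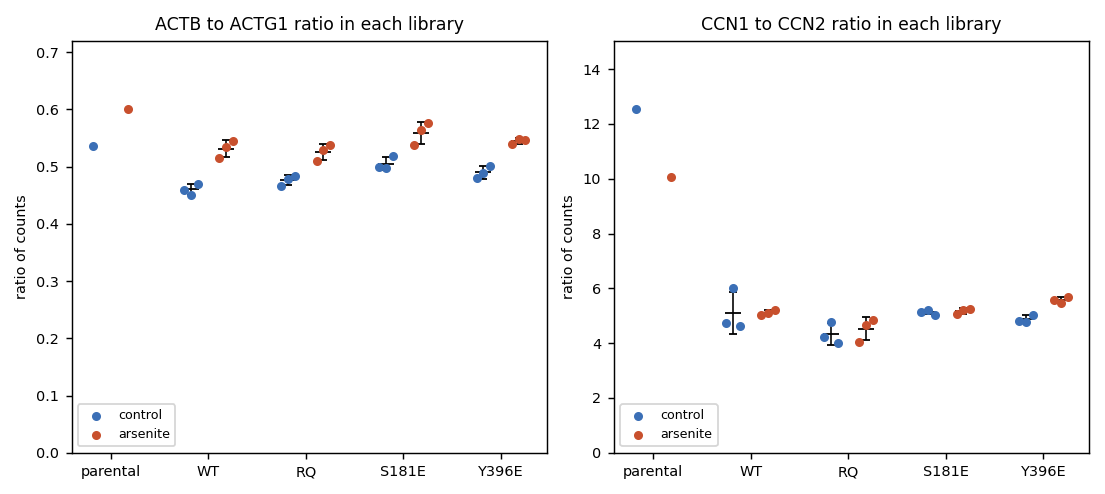
Ratio of counts of ACTB to ACTG1 (left) and CCN1 to CCN2 (right) in each library by population, control in blue and arsenite in red, with bars for the mean ± SD of 3 libraries. The ACTB to ACTG1 ratio is higher in arsenite in each population, from 0.460 to 0.532 in WT, while the CCN1 to CCN2 ratio overlaps between treatments in WT, S181E and RQ.

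CCN1 (ENSG00000142871.18, chromosome 1, 85580761 to 85583950, plus strand) and CCN2 (ENSG00000118523.6, chromosome 6, 131948176 to 131951372, minus strand) responded in WT and RQ. CCN1 had 357, 322 and 287 CPM in WT control and 232, 218 and 240 CPM in WT arsenite, without overlap. Its log2 change was -0.49 ± 0.08 in WT (adjusted p 9.66e-06) and -0.63 ± 0.08 in RQ (2.08e-07). In S181E, control libraries at 232, 244 and 248 CPM and arsenite libraries at 253, 263 and 256 CPM gave a log2 change of 0.09 ± 0.08 (adjusted p 0.329). In Y396E the change was 0.20 ± 0.08 (adjusted p 0.0313) and below the fold threshold, with overlapping libraries. Without Y396E control replicate 1 it was 0.29 and was called, and without Y396E arsenite replicate 3 it was 0.14 (adjusted p 0.122).

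CCN2, whose promoter with 3 TEAD motifs is shown above, had 75.7, 53.7 and 62.1 CPM in WT control and 46.2, 42.7 and 45.95 CPM in WT arsenite. The groups did not overlap, and the log2 change was -0.51 ± 0.11 (adjusted p 0.000229). In RQ it was -0.70 ± 0.11, from 58.9 to 79.2 CPM in control to 39.0 to 47.7 CPM in arsenite. In S181E (0.08 ± 0.11) and Y396E (0.01 ± 0.11) control and arsenite libraries overlapped, at 39.0 to 53.9 CPM. For CCN2 the parental control library had 32.9 CPM and the parental arsenite library 22.2 CPM, below every transgene library. For CCN1 the parental values were 412 and 223 CPM.

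The ratio of CCN1 to CCN2 was 5.11 ± 0.766 in WT control and 5.12 ± 0.1 in WT arsenite, with p = 1 in the exact permutation test. It did not separate by treatment in S181E (5.14 ± 0.0877 and 5.17 ± 0.0994) or RQ (4.34 ± 0.406 and 4.52 ± 0.419). In Y396E it was 4.88 ± 0.132 in control and 5.58 ± 0.102 in arsenite without overlap, with the exact p at its smallest value of 0.1.

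AMOTL2 (ENSG00000114019.15, chromosome 3, 134355347 to 134375479, minus strand) was called in S181E and Y396E and not in WT or RQ. It had 119, 125 and 127 CPM in S181E control and 82.6, 87.0 and 86.2 CPM in S181E arsenite, a log2 change of -0.54 ± 0.08 (adjusted p 2.57e-06). In Y396E it went from 126, 124 and 122 to 89.9, 78.2 and 84.9 CPM, a change of -0.56 ± 0.08 (1.23e-06). In WT the control libraries had 97.3, 76.3 and 97.7 CPM and the arsenite libraries 80.1, 73.5 and 76.4 CPM. The groups overlapped, and the changes of -0.24 ± 0.08 in WT (0.0106) and -0.14 ± 0.08 in RQ (0.134) were not called. The WT change of AMOTL2 lay near the fold threshold. It was called without WT control replicate 2 (-0.35) or WT arsenite replicate 1 (-0.27), with filterByExpr (-0.26) and with no filter (-0.27).

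ANKRD1 (ENSG00000148677.7, chromosome 10, 90912096 to 90921087, minus strand), a strong YAP target in other cells, was near the limit of detection. It had 0 counts in 11 of the 26 libraries, which allows 0.0764 to 0.137 CPM at 3 counts per library, and at most 17 counts in any. In control the libraries held 3, 0 and 7 counts for WT, 1, 0 and 4 for RQ, 16, 9 and 17 for S181E and 9, 17 and 14 for Y396E. In arsenite the sums over 3 libraries were 1 for WT, 0 for RQ, 6 for S181E and 10 for Y396E. Each S181E and Y396E control library held more ANKRD1 counts than any WT or RQ library. It passed filterByExpr only because of those control groups, and no test is reported. The intervals and limits of such counts cover counting error only.

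**Figure D3:**
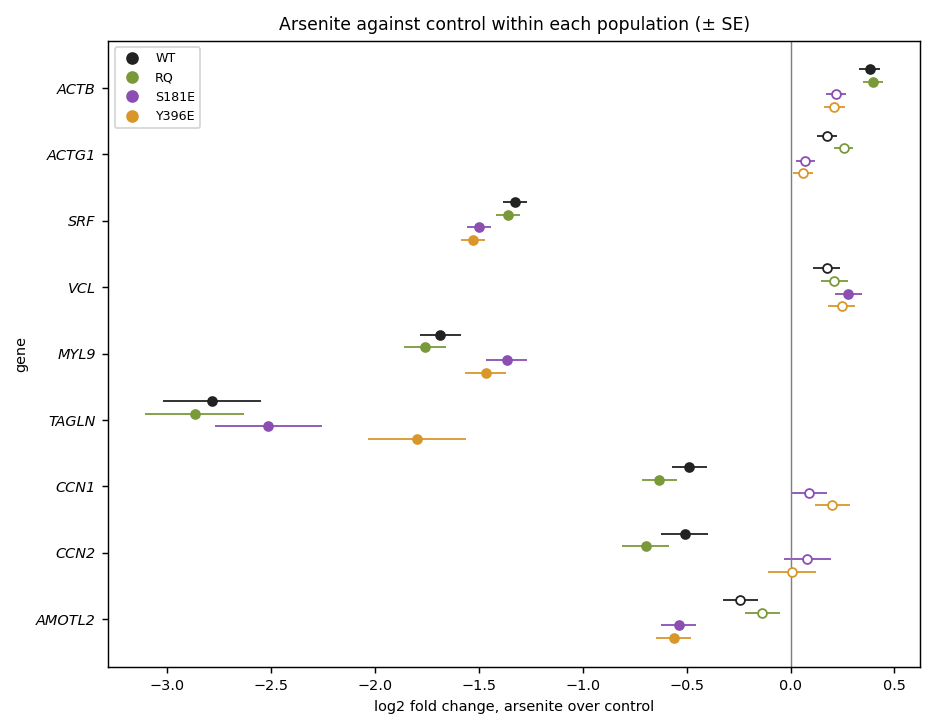
Log2 fold change of arsenite over control (x axis, ± SE) for 9 of the 10 genes in WT (black), RQ (green), S181E (purple) and Y396E (orange), with filled points for called genes. TAGLN comes from the filterByExpr fit and ANKRD1 is not shown. SRF, MYL9 and TAGLN lie below -1.3 in each population, CCN1 and CCN2 are filled in WT and RQ and AMOTL2 in S181E and Y396E.

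The second question was how each mutant differed from WT. Each genotype was a single sorted population, and its libraries were dishes of that population. The SE and p-values of comparisons between populations therefore measure the spread between dishes. An effect of the mutation cannot be told apart from other differences between the populations. In control cells S181E and Y396E had higher ACTB and AMOTL2 and lower MYL9, CCN1 and CCN2, and TAGLN was lower too. That is 5 of 8 called in each (2 higher, 3 lower), where 31.1% of all genes were called in S181E and 28.6% in Y396E. RQ had 0 of 8 called, where 1.43% of all genes were called. All mutant comparisons share the same WT libraries. IGF2BP1 RNA was itself higher in S181E (18.6 ± 1.56 CPM) and Y396E (16.5 ± 1.18) than in WT (12.1 ± 2.27), with adjusted p of 2.3e-05 and 0.00115. In arsenite it was 43.3 ± 0.688 CPM in S181E, 43.2 ± 1.26 in Y396E and 47.1 ± 0.863 in RQ, against 29.2 ± 1.15 in WT. Its part in the differences was not tested.

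TAGLN had the largest difference of the 9 genes with a reported test. S181E control had 11.01, 7.99 and 9.06 CPM and Y396E control 8.05, 8.89 and 10.1 CPM, all below the WT values of 15.8 to 18.0 CPM. The log2 differences of -0.84 ± 0.21 (adjusted p 0.00317) and -0.91 ± 0.21 (0.00194) were called in the filterByExpr fit, which called 25.6% and 23.6% of its genes in S181E and Y396E. RQ control had 18.7 to 23.0 CPM and a difference from WT of 0.26 ± 0.21.

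MYL9 had 118 to 123 CPM in S181E control and 111 to 128 CPM in Y396E control against 150 to 156 CPM in WT, with log2 differences of -0.34 ± 0.10 (adjusted p 0.00487) and -0.36 ± 0.10 (0.00368). Scaled by library totals alone these were -0.18 and -0.23 and no longer called. CCN1 was lower by 0.42 ± 0.08 on the log2 scale in S181E (0.000244) and by 0.48 ± 0.08 in Y396E (5.71e-05), and the S181E call was lost on library totals (-0.26). On that scale ACTG1 was called in S181E (0.31) and Y396E (0.33), and ACTB differed by 0.44 in S181E. CCN2 differed by -0.44 ± 0.11 in S181E (0.00236) and -0.43 ± 0.11 in Y396E (0.00334), where 1 Y396E library at 53.9 CPM overlapped WT.

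AMOTL2 was higher by 0.45 ± 0.08 in S181E (adjusted p 8.84e-05) and 0.46 ± 0.08 in Y396E (8.91e-05), with all 6 libraries at 119 CPM or more and no WT or RQ control library above 97.7 CPM. ACTB was higher by 0.28 ± 0.05 and 0.29 ± 0.05. Those ACTB calls sat near the fold threshold and were lost at 0.23 without WT control replicate 2, the lowest ACTB library, and in Y396E also without Y396E control replicate 3. ACTG1 differed by 0.15 ± 0.05 and 0.20 ± 0.05, SRF by -0.10 ± 0.06 and -0.13 ± 0.06 and VCL by -0.14 ± 0.07 and -0.19 ± 0.07, and none of these was called. The VCL difference in Y396E was -0.28 and called without WT control replicate 2.

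In arsenite 1 of 8 genes was called in S181E and in Y396E, where 13.7% and 21.7% of all genes were called, and 0 of 8 in RQ, where 1.52% were. The gene was SRF in each case. It had 94.2, 88.8 and 94.9 CPM in S181E arsenite and 89.0, 83.4 and 94.6 CPM in Y396E arsenite, all below the WT libraries at 109 to 115 CPM. The log2 differences were -0.27 ± 0.06 (adjusted p 0.00095) and -0.33 ± 0.06 (7.96e-05). The S181E call fell under the fold threshold with DESeq2, with its size factors in edgeR, with library totals, and without WT arsenite replicate 1 or S181E arsenite replicate 2, at -0.26 to -0.23. CCN1, CCN2, MYL9 and AMOTL2, which had differed in control, were within 0.21 of WT in either direction and not called. TAGLN differed from WT by -0.56 ± 0.28 in S181E and 0.08 ± 0.25 in Y396E, neither called. Without Y396E arsenite replicate 3 the Y396E value was -0.53 and the S181E value -0.59, both called.

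In RQ the log2 differences of the 8 genes from WT ran from -0.10 to 0.13 in control and from -0.25 to 0.06 in arsenite, with adjusted p of at least 0.659 and 0.168. TAGLN differed from WT by 0.18 ± 0.26 in RQ arsenite. Y396E against S181E gave 0 of 8 calls in control and in arsenite, and over all genes 0% was called in both, with 289 and 1375 of 9099 genes at an unadjusted p under 0.05 and 1 and 9 called by DESeq2. Without Y396E arsenite replicate 2 the count over all genes in arsenite was 692, and that of the 8 was still 0. The differences of the 8 genes between Y396E and S181E ran from -0.07 to 0.05 in control and from -0.12 to 0.05 in arsenite, with SE of 0.05 to 0.11. For TAGLN they were -0.07 ± 0.22 and 0.64 ± 0.27 (adjusted p 0.312), and the arsenite value was 0.06 without Y396E arsenite replicate 3 and 0.89, called, without replicate 2 of that group. These errors leave room for differences of the size of the fold threshold in CCN2 and MYL9, so the values do not show that the mutants act alike.

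**Figure D4:**
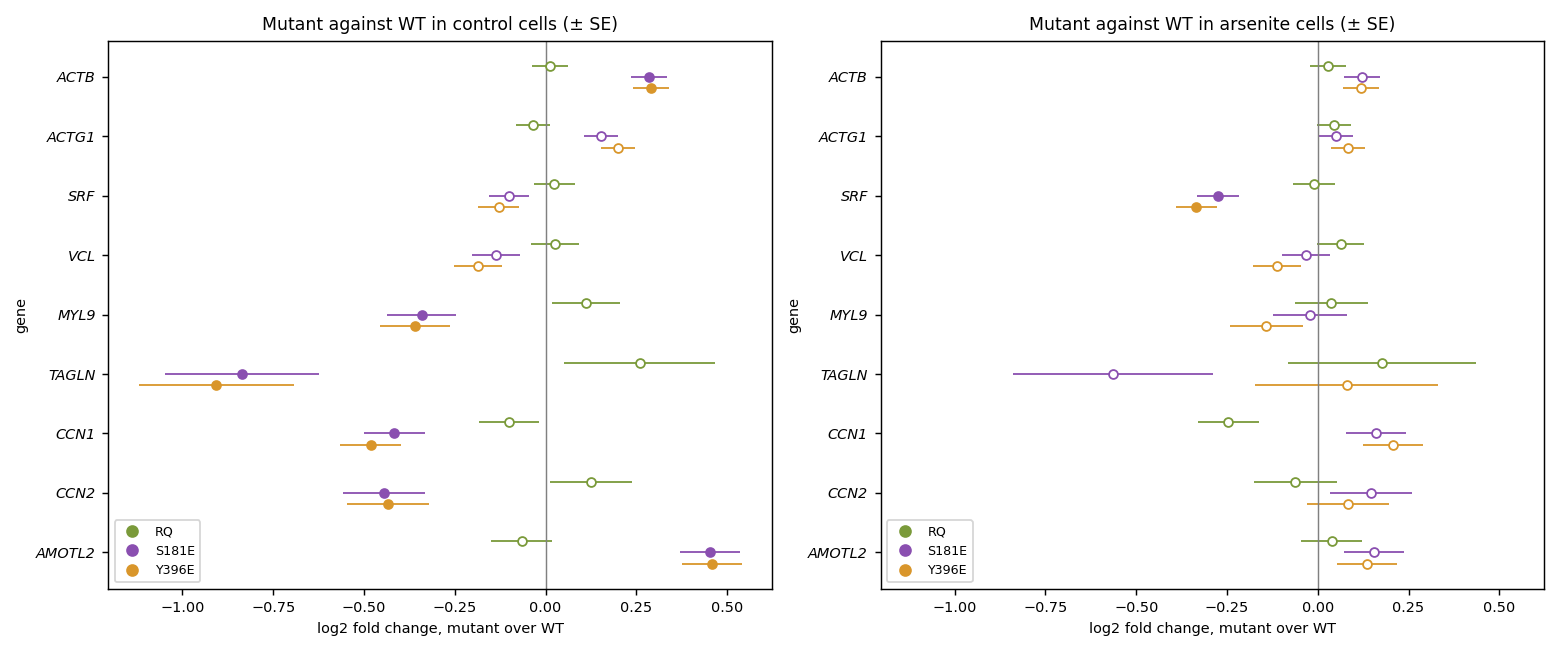
Log2 fold change of RQ (green), S181E (purple) and Y396E (orange) over WT (x axis, ± SE) for 9 genes in control cells (left) and arsenite cells (right), with filled points for called genes and TAGLN from the filterByExpr fit. In control cells S181E and Y396E lie together with lower TAGLN, MYL9, CCN1 and CCN2 and higher ACTB and AMOTL2, whereas in arsenite only SRF is filled.

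The third question was whether the response to arsenite itself differed from that of WT, tested as an interaction. In S181E 2 of 8 genes were called, CCN1 and CCN2, where 16.4% of all genes were called. Both were higher, with a called fall in WT and no called change in S181E. In Y396E 3 of 8 were called, CCN1 and CCN2 higher and AMOTL2 lower, where 21.5% were. In RQ 0 of 8 were called, where 0.22% were, and the 8 differences ran from -0.19 to 0.10. That of TAGLN was -0.08 ± 0.33.

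CCN1 fell in WT and had no called change in S181E or Y396E. Its log2 change in S181E lay above that of WT by 0.58 ± 0.12 (adjusted p 0.00231). In Y396E it lay above that of WT by 0.69 ± 0.12 (0.000374). These CCN1 calls held in each fit with 1 library left out and with library totals or DESeq2 size factors. For CCN2 the differences were 0.59 ± 0.16 (0.0136) and 0.52 ± 0.16 (0.0223), and the Y396E call was lost without WT control replicate 1, WT arsenite replicate 2 or Y396E control replicate 3, at 0.37 to 0.48, with library totals only (0.42), and when only the groups compared were fitted (adjusted p 0.0694). For AMOTL2 they were -0.30 ± 0.12 in S181E (0.0752) and -0.32 ± 0.12 in Y396E (0.0458). The Y396E call of AMOTL2 was marginal, with an adjusted p between 0.0503 and 0.158 in most fits that left out 1 library. It was lost in the filterByExpr fit too (adjusted p 0.0618). MYL9 differed by 0.32 ± 0.14 in S181E (0.108) and 0.22 ± 0.14 in Y396E (0.246), and without Y396E arsenite replicate 3 by 0.32 and 0.40, both called. TAGLN differed by 0.99 ± 0.33 in Y396E (0.0442) in the filterByExpr fit, which called 14% of its genes there, and by 0.37 and not called without that library. Most of the other fits that left out 1 library also lost this call, with an adjusted p of 0.0503 to 0.1. In S181E the TAGLN difference was 0.27 ± 0.35 (adjusted p 0.725).

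The partners and relatives of these genes were followed through 5 lists, which hold 60 tested genes. Of the 60, 49 were called in WT arsenite, where 72.2% of all genes were called (36.3% higher and 35.9% lower). In WT arsenite the SRF cofactors split. MRTFA rose by 0.98, from 12.9 to 16.7 CPM in control to 29.0 to 30.3 CPM in arsenite, while ELK3 (-1.23), ELK1 (-1.17) and ELK4 (-1.07) fell. MRTFB (0.32) and SCAI (-0.02), an MRTF inhibitor, were not called. With 1 higher and 3 lower of 6, the list's median log2 change was -0.54 against -0.01 over all genes. The same 4 were called in the same direction in RQ, S181E and Y396E.

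Of the immediate-early genes that SRF drives with ELK factors, 7 of 8 rose in WT arsenite, with a median of 3.73. FOS rose by 7.73 ± 0.10 on the log2 scale, from 4.24 to 6.09 CPM in control to 1104 to 1123 CPM in arsenite, EGR2 by 6.89 ± 0.13 and FOSB by 6.06 ± 0.16, all transcription factors. MCL1, a survival factor of the BCL2 family, fell by 0.34. The list rose in the other populations too, with 7 of 8 higher in each. Other structural targets of MRTF and SRF were mixed, with 6 higher and 8 lower of 18 tested (of 21) and a median of -0.22. TLN1 (talin, 1.98), ACTN1 (alpha-actinin, 1.33) and FLNA (filamin A, 1.11) rose, and FHL2 (-1.10), ZYX (zyxin, -0.69) and TPM4 (tropomyosin, -0.67) fell. The untested members of that list were ACTA2, CNN1 and TGFB1I1.

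Among Hippo pathway and TEAD genes 4 were higher and 10 lower of 17 tested (of 18, AMOT untested), with a median of -0.37. YAP1 was at 73.3 to 79.4 CPM in WT arsenite and 70.4 to 81.7 CPM in control (-0.02 ± 0.08), while WWTR1 fell by 0.56. TEAD1 (-0.34) and TEAD2 (-0.51) fell, TEAD3 (0.56) rose and TEAD4 (-0.19) was not called. The kinase genes STK3 (1.13) and LATS2 (0.60) rose, and the upstream regulators NF2 (-1.30), SAV1 (-0.88) and WWC1 (-0.80) fell. Other YAP and TEAD target genes had 3 higher and 7 lower of 12 tested (of 18), with a median of -0.64. F3, tissue factor, fell by 2.66, FJX1 by 2.12 and AXL, a receptor tyrosine kinase, by 1.14, while MYOF (1.04), LATS2, which stands in both lists, and ARHGEF17 (0.40) rose. The untested ones were IGFBP3, FOXF2, CCDC80, NUAK2, TGFB2 and RBMS3.

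**Figure D5:**
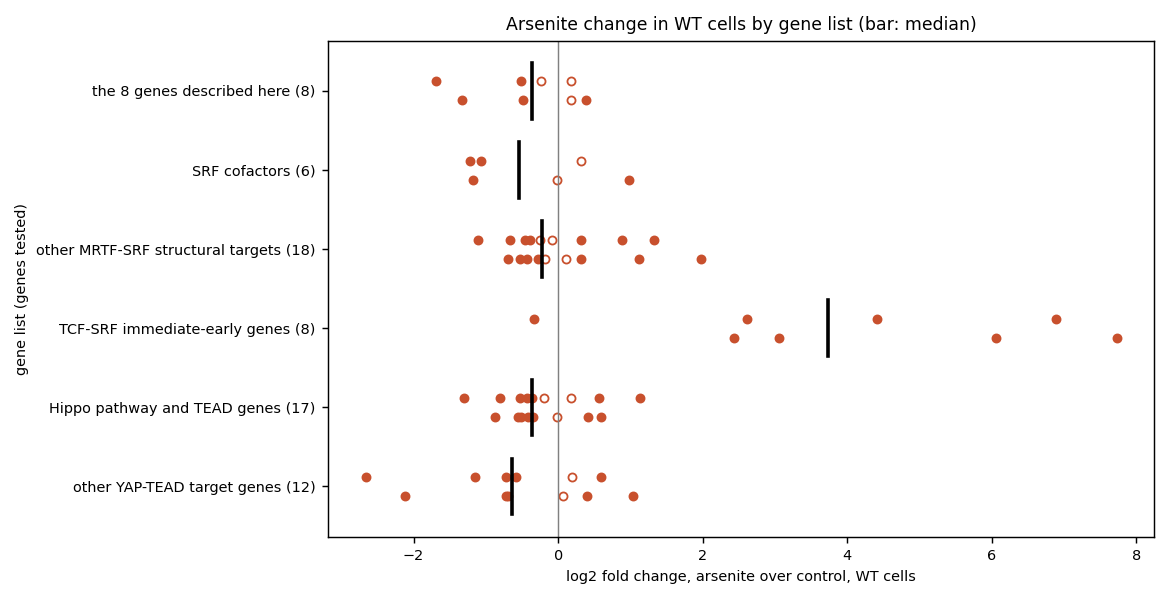
Log2 fold change of arsenite over control in WT cells (x axis) for the 8 tested genes and the tested genes of 5 lists, 1 point per gene, filled where called, with a bar at the median of each list. The immediate-early genes have a median of 3.73 and lie to the right of the rest except MCL1, whereas the 8 genes (-0.36) and the other lists scatter on either side of 0.

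In the other populations the counts in arsenite were close to these. Of the 60 listed genes, 50 were called in RQ, 47 in S181E and 46 in Y396E. Over all genes 72.9%, 65.3% and 65.8% were called in RQ, S181E and Y396E. Those called higher were 37.1%, 32% and 32.9%, and those called lower 35.8%, 33.3% and 32.9%. Structural targets had 6 higher and 9 lower in RQ, 4 and 8 in S181E, and 4 and 7 in Y396E. Hippo and TEAD genes had 4 and 10 in RQ, 2 and 11 in S181E, and 2 and 11 in Y396E. YAP1 had -0.07 in RQ and -0.25 in S181E, not called, and fell by 0.45 in Y396E, where replicate 3 at 41.0 CPM was below the other 2 libraries at 54.7 and 56.1 CPM. Without replicate 3 YAP1 fell by 0.32 there, and was still called. Other YAP and TEAD targets had 4 and 7 in RQ and 3 and 7 in S181E and in Y396E, led by F3 in each (-2.78, -2.36 and -2.16).

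Against WT in control cells, 18 of the 60 listed genes were called in S181E and 16 in Y396E, shares close to the 31.1% and 28.6% of all genes. The cofactor ELK3 was lower (-0.44 and -0.43) and the other 5 cofactors were not called. FHL1, a LIM-domain protein, was higher (0.86 and 0.97), as was LIMA1 (0.34 and 0.37), with NF2 (0.37) in S181E and WDR1 (0.33) in Y396E. Of the immediate-early genes 5 were lower in S181E, including EGR3 (-0.77), EGR1 (-0.69) and FOSB (-0.64), and 3 in Y396E, of which EGR1 (-0.62) was the lowest. TEAD2 (-0.49 and -0.56) and the YAP target FJX1 (-0.51 and -0.56) were lower, and TEAD4 was higher (0.37 and 0.30). TEAD1 was higher in S181E (0.32) and had 0.19 in Y396E. YAP1 (-0.13 and -0.15), WWTR1 (0.05 and 0.05) and TEAD3 (-0.08 and -0.13) were not called. In RQ 3 of the 60 were called, where 1.43% of all genes were called. These were NT5E (0.31), EGR1 (-0.54) and F3 (-0.31), and none was a cofactor, YAP1, WWTR1 or a TEAD gene.

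In arsenite 18 listed genes were called in S181E and 19 in Y396E, where 13.7% and 21.7% of all genes were called. Without Y396E arsenite replicate 3, 21 were called in Y396E, against 18.4% of all genes. FHL1 (0.80 and 0.73) and FLNA (0.64 and 0.70) were higher, with DOCK5 (0.52) in S181E and F3 (0.82) in Y396E. EGR3 (-0.91 and -0.86) and STK3 (-0.67 and -0.66) were lower, with FHL2 (-0.59) in S181E and AMOTL1 (-0.65) in Y396E. YAP1 was lower by 0.37 and 0.59 (0.45 without Y396E arsenite replicate 3) and TEAD2 by 0.41 and 0.57. Of the cofactors, MRTFB (-0.45) and ELK1 (-0.32) were lower in Y396E. Without Y396E arsenite replicate 3 they were at -0.15 (adjusted p 0.145) and -0.11 (0.0865), and neither was called. In RQ 2 were called, GADD45A (0.30) and F3 (-0.43), where 1.52% of all genes were called. Y396E against S181E gave 0 of 60 in either treatment.

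The response to arsenite differed from WT in 8 of the 60 genes in S181E and 12 in Y396E, shares below the 16.4% and 21.5% of all genes. Without Y396E arsenite replicate 3, 14 were called in Y396E, against 24% of all genes. In S181E FLNA (0.46), EGR1 (0.43) and ELK3 (0.42) were higher and LATS2 (-0.65), STK3 (-0.49) and SAV1 (-0.30) lower. In Y396E FJX1 (0.71), FLNA (0.58) and ELK3 (0.51) were higher and LATS2 (-0.62), STK3 (-0.52) and LATS1 (-0.46) lower. YAP1 differed by -0.44 in Y396E (-0.30 without Y396E arsenite replicate 3, also called) and -0.23, not called, in S181E. In RQ EGR1 (0.61) was the 1 listed gene called, where 0.22% of all genes were called.

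Genes whose profile over the 8 group means was most like that of a member were sought by the root mean square difference of centred log2 CPM, over 8 groups and 9099 genes. ANXA7 (0.0248), NMT1 (0.0252) and PRPSAP2 (0.0260) were nearest to ACTB, whose own profile varied by 0.185 and whose median difference from all genes was 0.327. SERPINB9 (0.0531), LPCAT4 (0.0700) and NAT8L (0.0713) were nearest to CCN2, with a profile of 0.230 and a median of 0.321. USP1 (0.0390), YJU2 (0.0559) and NOCT (0.0613) were nearest to AMOTL2, with a profile of 0.258 and a median of 0.346. No other gene of the 10 was matched in this way, and TAGLN was below the filter.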

How the data were processed

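The authors aligned reads to hg38 with STAR 2.7.11b and counted them per gene with featureCounts 2.0.6 (Subread, strand setting 2, GENCODE release 46, exons), and the deposited values are raw counts per gene and library, not normalized. Multi-mapping reads were not counted. Symbols and biotypes came from GENCODE release 44, which matched 62541 of 63086 identifiers (99.1%). Unmatched identifiers held at most 0.0356% of a library's counts.

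Protein-coding genes above 10 CPM in at least 12 of the 24 transgene libraries were tested (9099 genes) in edgeR 4.0.16 under R 4.3.3, with TMM factors of 0.865 to 1.086, one mean per group, 16 residual degrees of freedom and the quasi-likelihood test. P-values were Benjamini-Hochberg adjusted over all genes tested, and a call needed an adjusted p under 0.05 and a fold change over 1.2. The SE is the log2 change divided by the square root of F. Log2 CPM used a prior count of 2. Parental libraries stayed out of the fit. The main fit was checked on simulated counts for S181E and RQ against WT in control cells. The interaction tests and the filterByExpr fit were not checked in this way. No 2 libraries were identical, and chi-square per gene between replicates was 2.67 to 60.1.

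All 10 genes were followed in each comparison, by their range where none was called and ANKRD1 by its counts only. Of the lists, the SRF cofactors, YAP1, WWTR1, TEAD genes and up to 3 called genes with the largest rise and fall were to be named. A further gene list is not reported here. The members and lists were chosen with earlier results of these data known. Promoters came from RefSeq. The RNA immunoprecipitation libraries were not analysed here.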

Additional observations from a re-analysis of the deposited data

Results flagged for a closer look

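The arsenite response of some of the 10 genes differed from that of WT by the interaction test of edgeR. CCN1 fell in WT and had no called change in S181E or Y396E. Its log2 change lay above that of WT by 0.58 in S181E (adjusted p 0.00231) and 0.69 in Y396E (0.000374). For CCN2 the differences were 0.59 in S181E (0.0136) and 0.52 in Y396E (0.0223). For AMOTL2 the difference was -0.32 in Y396E (0.0458). The Y396E calls of CCN2 and AMOTL2 were each lost in several other fits, as given above. All of these differences compare with the same WT libraries. In control cells the differences of these 3 genes from WT were called in both mutants, whereas in arsenite they were 0.08 to 0.21 and were not called. No sample was tested for standing apart, since groups hold 3 libraries.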

How the results depend on the processing

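Over the 8 genes and 15 comparisons no fold change turned direction with a call. Of 120 values, 119 kept their side of the thresholds with DESeq2 1.42.0, 118 with its size factors in edgeR and 101 with library totals only. With a fold threshold of 2 the genes called were 2 in arsenite for WT, S181E, Y396E and RQ. They were 0 for S181E and Y396E against WT in control, in arsenite and in their responses. With no fold threshold WT arsenite had 8 and Y396E arsenite 6. Y396E arsenite had 5 with library totals only, and 5 with filterByExpr or no filter, where TAGLN and ANKRD1 enter. The filterByExpr count includes ANKRD1, which passed that filter only because of the S181E and Y396E control groups. Its part in the count is therefore not a result. S181E against WT in arsenite had 0 with DESeq2, its size factors or library totals, and 0 to 1 when 1 library was left out. The S181E response had 5 with library totals, 4 when only the groups compared were fitted, and up to 4 with 1 library left out, reached without Y396E arsenite replicate 3. The Y396E response had 1 when only the groups compared were fitted, and down to 1 without WT arsenite replicate 2 or Y396E control replicate 3. In the filterByExpr gene set, chosen after seeing the data for TAGLN, its difference in Y396E against WT in arsenite went from 0.08 to -0.53 without Y396E arsenite replicate 3, and to at most 0.32 without replicate 2 of that group. The cause of these changes was not tested.

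Library totals moved the median log2 change over all genes to 0.15 in WT arsenite, 0.16 in RQ arsenite, 0.18 and 0.14 in S181E and Y396E against WT in control, and -0.14 and -0.12 in their responses. The share of calls that were higher went from 50.3% to 61.6% in WT arsenite, 50.9% to 62.0% in RQ arsenite, 50.4% to 83.6% in S181E and 50.5% to 81.1% in Y396E control, 70.0% to 38.3% in RQ control, 38.7% to 55.9% in S181E arsenite, 89.9% to 77.7% in RQ arsenite against WT, and 42.6% to 13.0% and 48.1% to 18.2% in the S181E and Y396E responses. Counts over all genes also moved when only the groups compared were fitted (RQ control 130 to 71, RQ arsenite 138 to 250, Y396E arsenite 1972 to 1122, Y396E response 1954 to 948). They moved without WT control replicate 2 (S181E response 1491 to 746, Y396E response to 1159), and without Y396E arsenite replicate 2 Y396E against S181E in arsenite had 692. With 1 library left out, RQ control ran from 74 to 263, RQ arsenite from 70 to 218 and the RQ response from 8 to 38 (20 in the full fit, 31 with DESeq2, 12 with library totals).

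Libraries of different groups that shared a replicate number were weakly alike. Over 84 such pairs the mean correlation of deviations was 0.09 (-0.05 to 0.53), and 22 exceeded 0.1. For pairs with different numbers the mean was -0.045. The main fit held no block for the replicate number. With the replicate block the S181E response had 3 genes called, since AMOTL2 at -0.30 then passed (adjusted p 0.0398), and no other count of the 10 genes changed. ANKRD1 is limited by depth, at 0 to 17 counts per library.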
